A study of Mus musculus with 5 samples.

Results

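The genes of the dense-core secretory granule were examined in prostate tumors of castrated and intact TripleTg mice. They were the granins Chga, Chgb, Scg2, Scg3, Scg5, Vgf and Pcsk1n, the prohormone convertases Pcsk1 and Pcsk2, and the vesicle membrane protein gene Syp. The members were taken by their symbols, and 10 of 10 were found among the 24527 genes of the count table. They were chosen by the castrated and intact levels themselves, with earlier results of this comparison known, so these levels are given as a description with no test.

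Bulk RNA-seq was performed on prostate tissue of 3 castrated and 2 intact mice, 1 library per animal. All 5 mice carried the hHGFtg:H11hMET/+:Ctnnb1L(Ex3)/+:PBCre4 genotype, which brings together 3 alleles: human HGF expressed throughout the body, human MET, and β-catenin that escapes degradation. Cre from the probasin promoter, which is active in prostate epithelium and responds to androgen, turns on the latter pair. The mice were of a mixed C57BL/6 and C3H SCID background. Castration was performed at 4 months, both groups were analyzed at 8 months of age, and no androgen or drug treatment is labelled for either group. No group without the transgenes is labelled, so all levels given are those of transgenic tumors.

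Neuroendocrine cells store peptide hormones in dense-core granules. Granins are acidic proteins that aggregate in the trans-Golgi network and pack the hormones. The convertases cut prohormones after a pair of basic residues inside the granule, and calcium releases the content. In the normal prostate such cells are scattered in the epithelium, and pathologists use chromogranin A and synaptophysin to recognize neuroendocrine differentiation in prostate cancer.

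The cAMP response element (CRE), a site for CREB family factors, is a known feature of granin promoters, so the letters TGACGTCA were searched on both strands in the 250 bases before the RefSeq start site (build GRCm38.p6, the coordinates of mm10). A sequence was matched for 9 of the 10 members, all but Vgf. The complete CRE occurred in 3 of them, Chgb, Scg2 and Pcsk1, against 1.55% of all 32851 promoter windows of the same length. In these promoters its first base lay 72, 68 and 78 bases before the start, respectively. The core letters TGACG, which the complete element contains, occurred in 7 of 9 against 17.8% of all windows. The 120 bases before the start of Chga and of the promoters with the complete element are shown, 5′ to 3′ on the strand of the gene, because they show the shared letters in their context. In Chga the first base of TGACG lay 44 bases before the start, nearer than the complete elements. Capitals mark TGACG and its reverse complement, which overlap to form the complete element.
Chga, chr12:102554821-102554940, plus strand: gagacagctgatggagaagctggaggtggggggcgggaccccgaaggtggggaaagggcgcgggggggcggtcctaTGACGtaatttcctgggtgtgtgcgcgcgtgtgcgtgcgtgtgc
Chgb, chr2:132781522-132781641, plus strand: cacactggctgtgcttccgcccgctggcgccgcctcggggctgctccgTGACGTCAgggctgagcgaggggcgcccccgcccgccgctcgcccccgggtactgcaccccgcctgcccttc
Scg2, chr1:79440027-79440146, minus strand: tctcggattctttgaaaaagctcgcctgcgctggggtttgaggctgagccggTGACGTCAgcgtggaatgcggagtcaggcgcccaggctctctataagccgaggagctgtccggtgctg
Pcsk1, chr13:75089737-75089856, plus strand: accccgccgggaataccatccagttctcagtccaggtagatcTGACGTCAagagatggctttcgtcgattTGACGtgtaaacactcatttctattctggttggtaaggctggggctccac
The GC box GGGCGG, the letters bound by SP1, occurred in 6 of 9 members against 32.7% of all windows. The letters TATAAA occurred in 0 of 9 against 12.4%. Of the RE1 element bound by the neuronal repressor REST, the left part TTCAGCACC occurred in 0 of 9 against 0.301%, and the right part GGACAG in 1 of 9 (Scg2) against 18.7%. These matches describe letters only, and no binding was measured.

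The castrated libraries 1, 2 and 3 held 28015507, 18951782 and 20492061 counts in total, against 21560355 and 22853501 for intact 1 and 2. Granule genes took few of them. The 10 members together held 693, 454 and 926 counts in the castrated samples and 76 and 78 counts in the intact samples. The libraries of a group were not alike in their other genes. Tgm4, a secretory transglutaminase of the prostate, had 1268 CPM, counts scaled to the library total, in intact replicate 2 and 0.232 CPM in intact replicate 1. Castrated samples had at most 0.428 CPM of Tgm4, so intact replicate 2 stood apart from the other 4 samples in secretory genes. Of the probasin gene Pbsn, intact replicate 2 had 4.90 CPM and no other sample more than 0.464 CPM. The epithelial genes Epcam, Krt8 and Krt18 had at least 481 CPM in every sample.

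Chga, Chgb and Scg3 had the widest separation between castrated and intact samples. Chga (chromosome 12, 102554941 to 102565027, mm10) encodes chromogranin A, a core protein of the granule matrix. It had 127, 99 and 134 counts in castrated replicates 1, 2 and 3, or 4.53, 5.22 and 6.54 CPM, and 2 and 4 counts in the intact replicates, or 0.0928 and 0.175 CPM. The lowest castrated sample lay 25.9-fold above the higher intact sample, and the castrated samples were close to each other. The log2 fold change in the edgeR fit was 5.25 ± 0.61 (SE). With so few intact counts, the ratio of the summed counts, scaled to depth, was 39.5, with an exact 95% binomial interval from 18 to 108 that covers counting error only. In bulk tissue, fewer cells of a type and less RNA per cell cannot be told apart.

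Chgb (chromosome 2, 132781642 to 132795078) encodes chromogranin B, a granin of the same matrix. Its levels were 5.5, 3.75 and 12.7 CPM in the castrated samples and 0.325 and 0.263 CPM in the intact samples. Castrated replicate 3 was the highest, and the groups were separated by 11.5-fold at their nearest samples. The log2 fold change was 4.60 ± 0.80 (SE). Scg3 (chromosome 9, 75643366 to 75684056) encodes secretogranin III, which binds chromogranin A to the granule membrane. It had 1.96, 3.32 and 5.42 CPM in castrated and 0.186 and 0.0875 CPM in intact samples. All castrated samples were again above both intact samples, and the log2 fold change was 4.65 ± 0.81 (SE).

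The other granins were lower and their groups lay closer together. Scg2 (chromosome 1, 79434368 to 79440026), the precursor of secretoneurin, had 1.36, 1.42 and 0.39 CPM in castrated samples and 0.371 and 0.0438 CPM in intact samples. Castrated replicate 3 and intact replicate 1 each had 8 counts, so the groups touched, and the separation of 1.05-fold came from depth alone. The log2 fold change of Scg2 was 2.34 ± 1.08 (SE). Without intact replicate 1 it was 4.37, and without intact replicate 2 it was 1.5. Vgf (chromosome 5, 137030295 to 137033351), a precursor of several neuropeptides, had 23, 8 and 27 counts in castrated and 3 and 4 counts in intact samples. At 0.821, 0.422 and 1.32 CPM against 0.139 and 0.175 CPM, its groups did not overlap, but it did not reach the filter on low values (a CPM above 1 in at least 2 samples) and was not among the genes tested. A fit with no filter gave a log2 fold change of 2.37 ± 0.84 (SE).

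Pcsk1 and Pcsk2 encode PC1/3 and PC2, the convertases of the granule. Pcsk1 (chromosome 13, 75089857 to 75134859) had 4.0, 6.54 and 9.08 CPM in castrated samples and 1.11 and 1.62 CPM in intact samples. It was the member with the most counts in the intact tumors, 24 and 37. This gave a log2 fold change of 2.22 ± 0.56 (SE). Pcsk2 (chromosome 2, 143546133 to 143816282) had 48, 10 and 38 counts in castrated tumors against 8 and 3 in intact tumors, or 1.71, 0.528 and 1.85 CPM against 0.371 and 0.131 CPM. Castrated replicate 2 was near intact replicate 1, and the separation was 1.42-fold. In the fit its log2 fold change was 2.42 ± 0.89 (SE).

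Of the binding partners of the convertases, Scg5 was higher in castrated samples and Pcsk1n was barely counted. Scg5 (chromosome 2, 113776313 to 113829091) encodes 7B2, the chaperone that PC2 needs to become active. It had 1.53, 1.16 and 1.61 CPM in castrated samples and 0.603 and 0.131 CPM in intact samples. The castrated samples were close together, the intact samples differed, and the log2 fold change of 1.97 ± 0.76 (SE) was 3.33 without intact replicate 1 and 1.25 without intact replicate 2. Pcsk1n (chromosome X, 7919822 to 7924410) encodes proSAAS, an inhibitor of PC1/3. It had 3, 0 and 1 counts in castrated tumors against 0 and 4 in intact tumors, so the groups overlapped and it was not among the genes tested. In the samples with 0 counts the depth allows up to 0.158 CPM in castrated replicate 2 and 0.139 CPM in intact replicate 1, the level of 3 counts, and a difference in Pcsk1n was not detectable at this depth. Pcsk1n overlaps the gene Eras on the opposite strand, and the strand setting of the counting is not given in the sources used here.

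Syp (chromosome X, 7638580 to 7653256) encodes synaptophysin, a membrane protein of synaptic vesicles and of the small clear vesicles of endocrine cells. It had 90, 30 and 127 counts in castrated tumors against 7 and 14 in intact tumors, or 3.21, 1.58 and 6.20 CPM against 0.325 and 0.613 CPM. Castrated replicate 2 was the lowest of the castrated samples and lay 2.58-fold above intact replicate 2. For Syp the fitted log2 fold change was 2.91 ± 0.83 (SE). Antisense genes overlap Syp and Pcsk2, and an unclassified gene model overlaps Scg3 on the opposite strand, so some of their reads could belong to these partners. The other members had no overlapping gene in GENCODE vM21, apart from Eras at Pcsk1n.

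**Figure D1:**
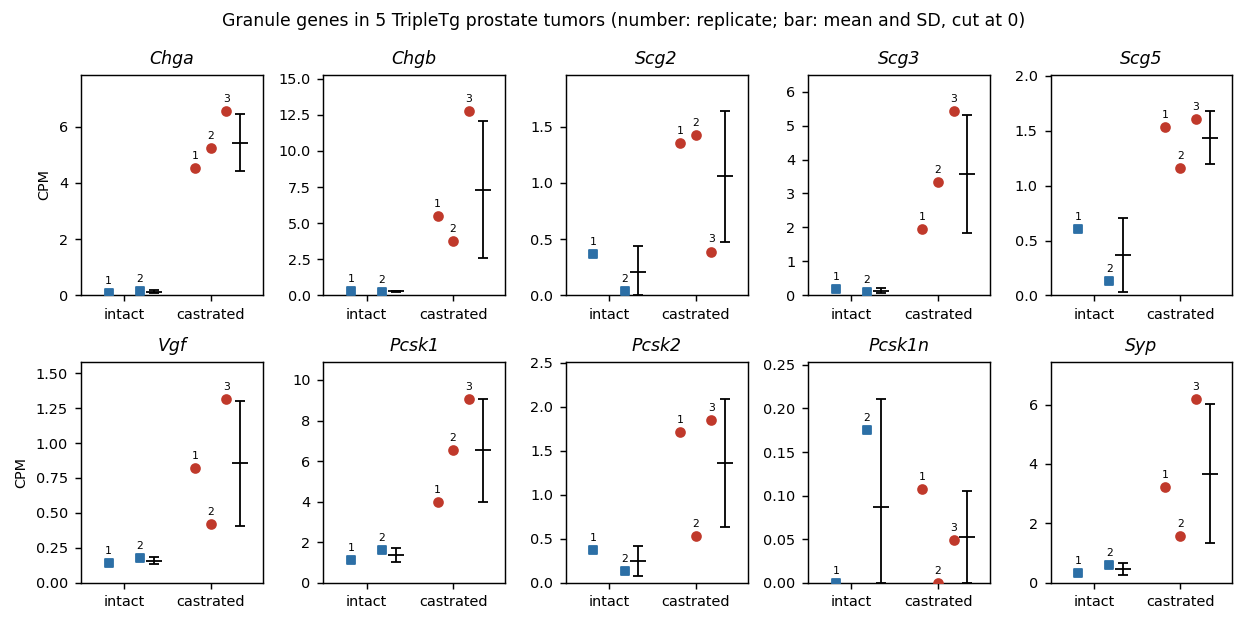
CPM of the 10 granule genes in each sample, with a separate linear axis from 0 for every gene; blue squares are the 2 intact and red circles the 3 castrated samples, and bars give the mean and SD. In 9 genes the castrated samples lie above both intact samples, with Scg2 touching, and Pcsk1n stays below 0.2 CPM in all samples.

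In 9 of the 10 members every castrated sample had a higher CPM than both intact samples, and the remaining member was Pcsk1n. Among the 14612 genes tested, 17.8% were higher in this way, and since the members were proposed from this contrast, nothing is read from the difference. The same 9 members were separated on the TMM scale. Of the 10 members, 8 passed the filter on low values, 7 of them only because of their castrated samples and Pcsk1 because of all samples. Over the whole table, 0 genes (0%) had both a Benjamini-Hochberg adjusted p below 0.05 in the edgeR quasi-likelihood test and a log2 fold change beyond 1 in either direction. At the unadjusted p 1596 genes passed (10.9%), of which those higher in castrated samples were 7.66% and those lower 3.26% of the genes tested. After adjustment limma voom called 0 genes and DESeq2 989.

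The summed level of the members was 24.7, 24 and 45.2 CPM in castrated replicates 1, 2 and 3 and 3.52 and 3.41 CPM in the intact samples. The means were 31.3 ± 12 (SD, n = 3) and 3.47 ± 0.0792 (SD, n = 2), a 9.02-fold difference. The intact samples were close to each other in this sum, but not in each member, as the values of Scg2, Scg5 and Pcsk2 show. Without either intact replicate the fitted fold change of every member except Pcsk1n, which has too few counts for a fold change, was above 0. The separation of the groups in these members nearly fixed that sign in advance, so nothing is read from it. Castrated replicate 3 had the highest castrated value in 8 of these 9 members, and the exception was Scg2, in which it had the lowest. Castrated replicate 2 had the lowest castrated value in 5 of the 9 members and castrated replicate 1 in 3.

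**Figure D2:**
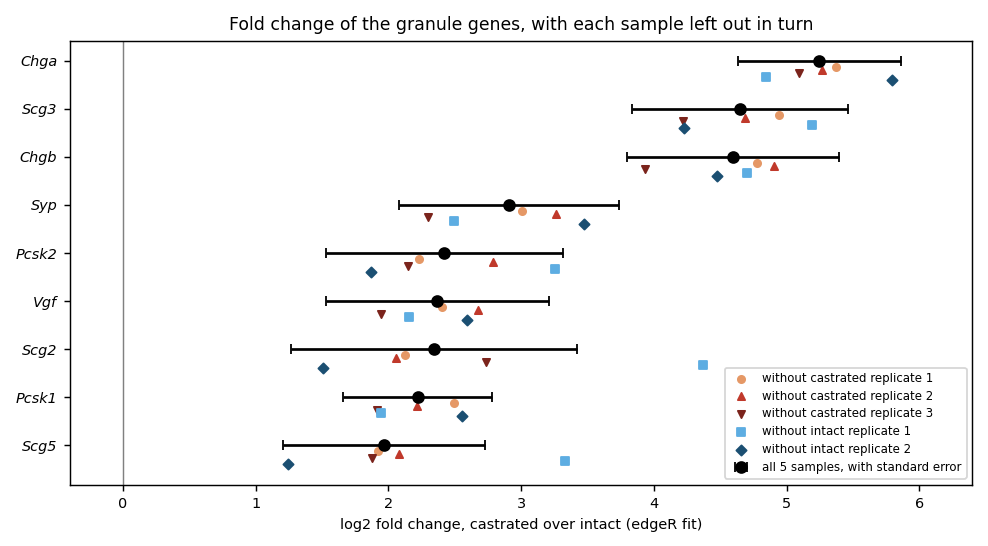
Log2 fold change of castrated over intact samples from the edgeR fit for 9 granule genes (Pcsk1n is left out for its few counts); black points use all 5 samples with the standard error, and colored points leave out 1 sample each. Every point lies above 0, and Scg2 and Scg5 move most, to 4.37 and 3.33 without intact replicate 1. The sign was nearly fixed in advance, since in these genes every castrated sample lies above both intact samples.

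Levels of different genes were compared per length, as TPM, which scales counts for gene length and library total. In castrated samples the order was led by Chgb with 7.19 ± 4.61 TPM and Chga with 6.68 ± 1.24 TPM (SD, n = 3). Scg3 (3.80 ± 1.83), Syp (3.44 ± 2.17), Pcsk1 (3.07 ± 1.19) and Scg5 (2.74 ± 0.403) followed. Then came Scg2 (0.912 ± 0.506), Vgf (0.777 ± 0.400), Pcsk2 (0.669 ± 0.349) and Pcsk1n (0.0546 ± 0.0562). Only the steps from Scg5 to Scg2 and from Pcsk2 to Pcsk1n were larger than the sum of the SDs of both neighbours. In intact samples Scg5 had 0.695 ± 0.683 TPM and Pcsk1 0.585 ± 0.0753 TPM (SD, n = 2), the highest of the members, and no step in the order exceeded the spread. All of these are low levels. The median gene tested had between 16.4 and 21.5 TPM in the 5 samples, and Chgb, the highest member, was at percentile 54.5 of all genes of the table in castrated samples and at percentile 35.4 in intact samples.

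The members also differed in how much they varied between castrated mice. The SD of log2 CPM among the 3 castrated samples was 0.22 for Scg5 and 0.28 for Chga, below the median of 0.30 over all genes tested. It was between 0.60 and 0.94 for Pcsk1, Scg3, Chgb, Pcsk2, Scg2 and Syp. Over the 5 samples and among the 8 tested members, the highest correlation was that of Chgb with Scg3 (Pearson r = 0.98) and the lowest that of Scg2 with Syp (r = 0.43). The 5 points share the difference between the groups, so these values describe the pattern only.

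The genes most like Chga over the 5 samples, by the correlation of log2 CPM, were Tph1 (r = 0.9996), Gnb3, Stx19, Lrmp and Atp2a3 (r = 0.995). Tph1 encodes the tryptophan hydroxylase that starts serotonin synthesis outside the brain. It had 7.82, 7.91 and 10.7 CPM in castrated samples and 0.232 and 0.394 CPM in intact samples. Gnb3 encodes a G protein subunit of taste cells and cone photoreceptors, Stx19 a syntaxin, and Atp2a3 a calcium pump of the endoplasmic reticulum. Lrmp had 35.6, 39.9 and 37.7 CPM in castrated and 4.41 and 5.82 CPM in intact samples. With 5 points such values are common, and 236 of 14604 other genes had an r above 0.95 with Chga. For Syp the most alike were Decr2, Cbln1, Sdha, Naprt and Zfp14 (r from 0.992 to 0.997), and 123 genes had an r above 0.95. The mitochondrial enzyme gene Sdha differed little in size, with 263, 238 and 273 CPM in castrated and 210 CPM in both intact samples.

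To place the members in their pathway, 86 other genes of peptide processing, granule release, synaptic vesicles and peptide hormones were examined, of which 54 passed the filter. After Benjamini-Hochberg adjustment, 0 were called by the edgeR quasi-likelihood test and 0 by limma voom, while DESeq2 called 6 (Adcyap1, Ptprn2, Rab27a, Rph3a, Slc18a2 and Synpr). All of these but Rab27a were at or below 1 CPM in both intact samples, so they entered the test only through the castrated samples in which they were high. At the unadjusted p with an absolute log2 fold change above 1, 8 had higher and 0 had lower castrated levels, 14.8% of those tested against 10.9% of all genes, and 5 of the 8 had entered the test in that way. In 12 genes every castrated sample was above both intact samples (22.2% against 17.8% of all genes), and in 6 every one was below (11.1% against 15.3%). Of the 12, Ptprn2, Slc18a2, Rph3a, Synpr, Sv2c and Adcyap1 entered the test only through their castrated samples. The median log2 fold change was 0.16, against -0.03 for all genes tested. The count at the unadjusted p varied with the intact samples, being 17 (14 higher, 3 lower) without intact replicate 1 and 10 (4 higher, 6 lower) without intact replicate 2.

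The other enzymes of peptide processing were abundant in both groups, and of 11 tested, 0 lay above and 2 below (Pcsk4 and Pcsk7, both convertases) the intact range in every castrated sample, against 17.8% and 15.3% of all genes. Of the 11, 0 passed at the unadjusted p with that fold change, and the median log2 fold change was -0.21. Cpe, the carboxypeptidase that trims the ends left by the convertases, had 598, 259 and 201 CPM in castrated samples and 1276 and 264 CPM in intact samples. For Cpe the log2 fold change was -1.11 ± 0.74 (SE), and its Benjamini-Hochberg adjusted p in the edgeR quasi-likelihood test was 0.516. Pam, which amidates peptides, had 337, 436 and 527 CPM in castrated and 856 and 252 CPM in intact samples. Furin, a convertase of the Golgi that works without granules, had a log2 fold change of -0.02 ± 0.38 (SE). Ctsl, a lysosomal protease that also acts in some secretory vesicles, ranged from 572 to 5378 CPM in castrated samples and had 808 and 240 CPM in intact samples, and its groups overlapped.

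Among the genes of granule biogenesis and release, 5 of 21 lay above and 2 below the intact range in every castrated sample, against 17.8% and 15.3% of all genes. At the unadjusted p 4 of 21 passed, all of them higher, against 7.66% of all genes. Ptprn2, Slc18a2 and Rph3a, which are in both counts of higher genes, entered the test only through their castrated samples. The median over the list was -0.02 on the log2 scale. Cadps, which primes dense-core granules for fusion, had 409, 172 and 101 CPM in castrated samples and 169 and 403 CPM in intact samples. Slc18a1, a monoamine transporter of endocrine granules, had 106, 35.6 and 22.8 CPM against 85.4 and 15.1 CPM. Both were thus more counted than any granin in every sample, with groups that overlapped. Hid1, a factor of granule formation, and Ica1 had log2 fold changes of -0.79 and -0.62 (edgeR adjusted p = 0.356 and 0.329).

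The genes that passed at the unadjusted p were Rab27a, Ptprn2, Slc18a2 and Rph3a. Rab27a, a small GTPase that docks granules at the plasma membrane, had 26.8, 22.4 and 36.1 CPM in castrated samples and 7.24 and 4.55 CPM in intact samples. The log2 fold change was 2.26 ± 0.36 (SE), and its Benjamini-Hochberg adjusted p in the edgeR quasi-likelihood test was 0.289, higher in 3 of 3 castrated samples. Ptprn2 encodes phogrin, a membrane protein of the dense-core granule. It had 1.36, 2.37 and 3.90 CPM against 0.0928 and 0.219 CPM, a log2 fold change of 3.94 ± 0.86 (SE), with an edgeR adjusted p of 0.289. Slc18a2, the other vesicular monoamine transporter, had 1.53, 2.64 and 4.39 CPM against 0.417 and 0.175 CPM, a log2 fold change of 3.24 ± 0.79 (SE), with an edgeR adjusted p of 0.289. In these 3 genes both intact samples were below every castrated sample. Rph3a, a Rab effector, had 8, 87 and 31 counts in castrated tumors against 0 and 1 in intact tumors. The ratio of its summed counts was 83.0, with a counting interval from 14.6 to 3302.

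Synaptic vesicle and SNARE genes had a median of 1.07 on the log2 scale over 16 tested genes, of which Synpr and Sv2c entered the test only through their castrated samples. At the unadjusted p 2 of 16 passed (Synpr and Syn1), against 10.9% of all genes. In every castrated sample 4 lay above and 2 below the intact range, against 17.8% and 15.3% of all genes. Synpr encodes synaptoporin, a relative of synaptophysin, and had 28.1, 3.90 and 3.12 CPM in castrated and 0.788 and 0.919 CPM in intact samples. For Synpr the log2 fold change was 3.73 ± 1.24 (SE), and its Benjamini-Hochberg adjusted p in the edgeR quasi-likelihood test was 0.303. Castrated replicate 1 carried most of it, unlike Syp, in which castrated replicate 3 was highest. Syn1, synapsin I, had 2.78, 5.38 and 2.98 CPM against 1.58 and 1.09 CPM. Syt1, a calcium sensor of release, had 2.61, 2.53 and 2.24 CPM in castrated samples but 1.02 and 27.1 CPM in intact replicates 1 and 2, a log2 fold change of -2.60 ± 1.18 (SE). Sypl, Vamp2 and Syngr1, among the genes of the list with the highest levels per length, occur in many cell types and had log2 fold changes from -0.37 to -0.08 (edgeR adjusted p from 0.525 to 0.947).

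Few peptide hormones were measured. Of 32 genes, 6 passed the filter, and Sst, Gip and Ucn had 0 counts in all samples. The median over the 6 was 1.31 on the log2 scale, and 3 lay above and 0 below the intact range in every castrated sample, against the same shares of all genes. Of the 3, Adcyap1 entered the test only through its castrated samples. Penk, the enkephalin precursor, was the most abundant per length. It had 97.9, 47.2 and 103 CPM in castrated samples and 40.5 and 24.4 CPM in intact samples, with a log2 fold change of 1.34 ± 0.41 (SE), and its Benjamini-Hochberg adjusted p in the edgeR quasi-likelihood test was 0.300. Adcyap1, which encodes the neuropeptide PACAP, had 6, 23 and 86 counts in castrated tumors against 1 and 0 in intact tumors. The ratio of its summed counts was 75.7, with a counting interval from 13.3 to 3016. Edn1, endothelin 1, had 12.6, 9.92 and 26.5 CPM against 8.02 and 3.72 CPM. The levels of Npy, Calcb and Adm overlapped between the groups.

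**Figure D3:**
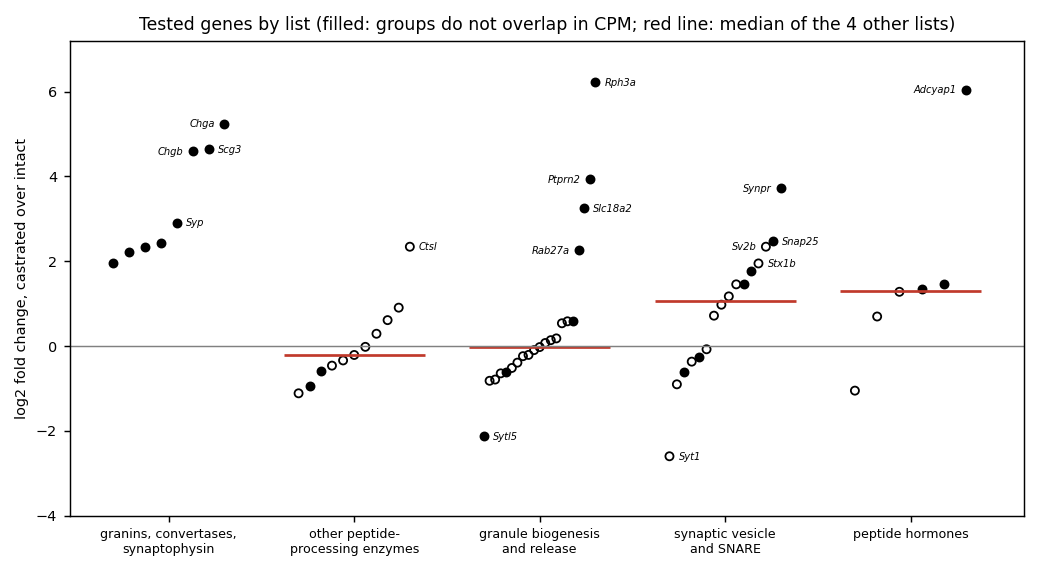
Log2 fold change of castrated over intact samples for the tested genes of each list, ordered within a list; filled points are genes whose groups do not overlap in CPM and red lines mark the median of the 4 other lists. The 8 tested granule genes lie between 1.97 and 5.25, and the medians of the other lists are -0.21 for processing enzymes, -0.02 for release genes, 1.07 for synaptic vesicle genes and 1.31 for peptide hormones.

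Among regulators of neuroendocrine fate, Sox2, Foxa2 and Prox1 were abundant with overlapping groups, Nkx2-1 had 0 counts in all samples, and Rest, the repressor of neuronal genes, had 73.2, 91.7 and 63.7 CPM in castrated and 97.8 and 62.3 CPM in intact samples.

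Markers of other cell types were read beside the granule genes, since nerves also hold dense-core granules. The 16 neuronal genes had a summed level of 1346, 61.4 and 73.0 CPM in castrated and 55.1 and 43.6 CPM in intact samples. Most of the first value was Ret, a receptor tyrosine kinase with 1311 CPM in castrated replicate 1. Without Ret the sums were 35.1, 38.1 and 31.8 CPM against 48.1 and 32.8 CPM, and the groups overlapped. Of 10 neuronal genes tested, 3 had all castrated values above both intact values (Ret, Prph and Elavl4), against 17.8% of all genes, and 0 had them below. Of these genes, Prph entered the test only through its castrated samples. The fitted fold change was below 0 in 6 of the 10, Tubb3 (-1.35) and Gap43 (-1.25) among them, and the list median was -0.29 on the log2 scale. Prph, peripherin of peripheral neurons, had 1.61, 2.80 and 7.03 CPM against 0.139 and 0.306 CPM. The sympathetic markers Th, Dbh and Phox2a had between 0 and 5 counts in every sample, and Chrna3 had 0. The 10 Schwann and glial genes summed to 234, 428 and 382 CPM against 236 and 383 CPM, with Pmp22 the highest per length (TPM). In 3 of 8 tested every castrated sample was higher, against 17.8% of all genes, and 1 of these (Cdh19) entered the test only through castrated samples. The part of nerve tissue in the granule genes was not tested beyond these values.

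The gene named for each of the next lists is its highest per length (TPM), while the sums are in CPM. Counts of genes higher in every castrated sample stand against 17.8% of all genes tested. Adipocyte genes (Fabp4) summed to 297, 2494 and 1690 CPM in castrated replicates 1, 2 and 3 and to 180 and 347 CPM in intact samples. These sums overlapped, while 6 of 11 genes were higher in every castrated sample. All 6 entered the test only through castrated samples. Lpl had the highest CPM of this list in every sample but intact replicate 1. Macrophage genes (Lyz2) summed to 2724, 7280 and 3037 CPM against 1149 and 1603 CPM, and 10 of 10 were higher in every castrated sample. Smooth muscle genes (Tagln) summed to 423, 711 and 668 CPM against 255 and 148 CPM, and 7 of 8 were higher in every castrated sample. Lymphocyte genes (Cd79a) summed to 20.8, 96.1 and 99.5 CPM against 4.04 and 33.2 CPM, and 4 of 8 were higher in every castrated sample, all but Cd4 having entered the test only through castrated samples. Endothelial genes (Cldn5) summed to 604, 281 and 342 CPM against 457 and 160 CPM, and 2 of 6 were higher in every castrated sample. The sums of both lists overlapped between the groups. Epithelial genes (Krt18) summed to 3854, 3541 and 4620 CPM against 5357 and 3785 CPM. Per 1000 CPM of these epithelial genes, the members had 7.65 ± 1.85 CPM (SD, n = 3) in castrated and 0.780 ± 0.172 CPM (SD, n = 2) in intact samples, a 9.81-fold difference, so the difference was as large on this scale as in plain CPM. The part of stromal, fat and immune tissue in the result was not tested.

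**Figure D4:**
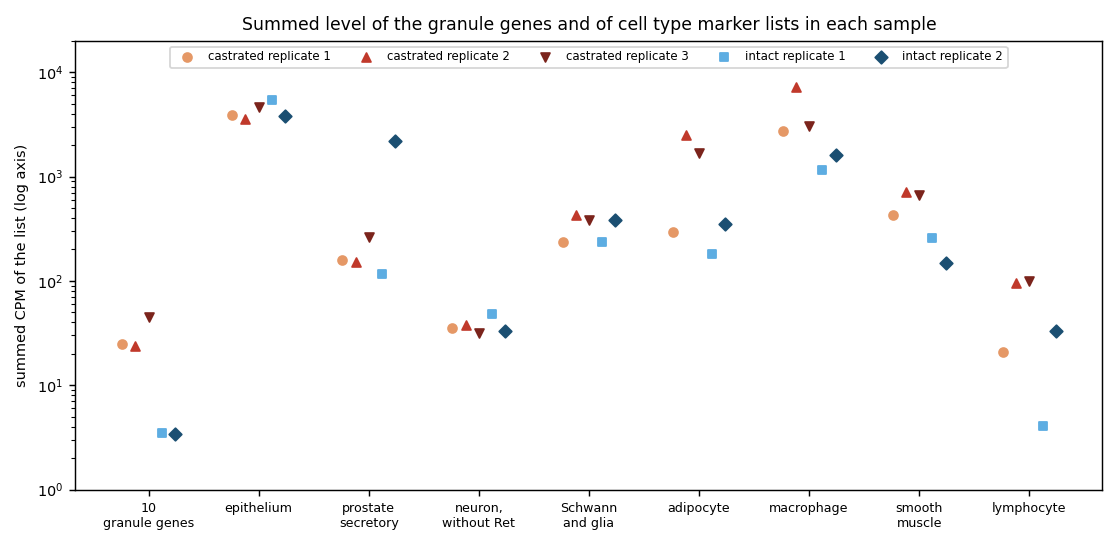
Summed CPM of the 10 granule genes and of cell type marker lists in each sample on a log axis; symbols mark the sample. The granule genes lie at 24 to 45.2 CPM in castrated and at 3.41 and 3.52 CPM in intact samples, while the neuronal list without Ret lies between 31.8 and 48.1 CPM in all 5.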

How the data were processed

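Bulk RNA-seq of 3 castrated and 2 intact prostate tumors was used, and samples were grouped by their labels. Libraries were depleted of ribosomal RNA and sequenced in paired ends. Per the submitters' processing notes the tools were Trimmomatic 0.39, STAR 2.7.9 (genome mm10) and HTSeq 2.0.2, and the authors deposited raw counts per gene, without normalization. The deposited gene length was used for TPM. The 14612 of 24527 genes that exceeded 1 CPM in 2 or more samples were fitted with edgeR 4.0.16 in R 4.3.3, using TMM factors (0.944 to 1.036), the quasi-likelihood F-test, a prior count of 0.125 and Benjamini-Hochberg adjustment, after the methods of the study, with counts in place of TPM. The common dispersion was 0.238. limma 3.58.1 (voom) and DESeq2 1.42.0 were alternatives. Standard errors are the log2 fold change before the prior count divided by the square root of F. Correlations used log2 CPM (prior count 2). The procedure was tested on simulated data.

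The members and gene lists were chosen with earlier results of these data known. Named genes were all members, the 4 genes with the highest TPM and those with the smallest unadjusted p of each pathway list, the gene with the highest TPM of each marker list and the 5 genes most like Chga and Syp. Others (Pbsn, Lpl, Epcam, Krt8, Prph, Elavl4, Tubb3, Gap43, Sv2c, Pcsk4, Pcsk7, Cdh19, Cd4, Rph3a and the sympathetic markers among them) were chosen after their values were seen. Some genes of these lists are not reported here. Libraries of a group were not copies of each other (chi-square per gene of 116 or more). Counting intervals treat reads as independent and cover counting error only.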

Additional observations from a re-analysis of the deposited data

How the results depend on the processing

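All 141 fold changes of the 9 members with enough counts were above 0 under the alternatives run, and 6 of them moved by more than the SD between replicates. The members were proposed from this contrast, and in these 9 every castrated sample was above both intact samples. A fold change below 0 could therefore hardly arise, and only the sizes are read. Leaving out 1 replicate at a time, the log2 fold change ranged from 4.84 to 5.79 for Chga, from 3.93 to 4.91 for Chgb, from 4.22 to 5.19 for Scg3, from 1.5 to 4.37 for Scg2, from 1.25 to 3.33 for Scg5, from 1.94 to 2.67 for Vgf, from 1.91 to 2.55 for Pcsk1, from 1.87 to 3.26 for Pcsk2 and from 2.30 to 3.47 for Syp. A fit without 1 intact replicate assumes that the lone intact sample varies like the castrated ones. A prior count of 2, chosen after seeing the data, gave 4.60 for Chga.

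Over all genes, 0 were called after adjustment except with DESeq2 (989, of which 703 were higher and 286 lower) and in the fits without 1 replicate (0 to 1, the 1 gene being lower and seen without intact replicate 1). At the unadjusted p the count was 975 with the replicate block and 898 (castrated replicate 3 left out) to 2588 (intact replicate 1 left out) without 1 replicate, with 922 without castrated replicate 2. The count of pathway list genes was 13 with DESeq2, 5 with limma voom, 13 with no filter and 6 to 17 without 1 replicate. With the replicate number as a block it was 7, and the log2 fold changes of the 9 members lay between 1.88 (Vgf) and 5.13 (Chga). Same-numbered samples are different animals, with correlations of their deviations of 0.149 and -0.045. The causes were not tested. The few counts of the members, 76 and 78 in the intact samples, limit their fold changes.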
